A study of Mus musculus with 2 samples.

Results

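The genes described here are 10 that mark microfold cells: Gp2, Spib, Sox8, Ccl20, Ccl9, Ccl6, Tnfaip2, Tnfrsf11b, Siglecf and Anxa5. They were chosen by symbol from the 55487 genes of the deposited matrix, all 10 were found, and all 10 are protein-coding. Their UMIs, tags that each mark 1 captured RNA molecule, were summed over 9185 cells by the authors' cell class and by sample. The cells were medullary thymic epithelial cells of the low-MHC fraction (mTEClo) from C57BL/6 mice, sorted without surface Pdpn and CD104 after cells with CD45 had been removed. All 7 samples carried 1 Foxn1(cre) allele, which recombines floxed genes in thymic epithelium. The 3 control samples, Hnf4ctrl, were Hnf4a(fl/+) Hnf4g(+/-), so they also had 1 copy of each targeted gene altered. The 4 mutant samples, Hnf4dTEC, were Hnf4a(fl/fl) Hnf4g(-/-), with no intact copy of Hnf4g. The age of the mice is not given in the sources used here. Antibody tags against H2-Kb marked each sample, and all were run together on 1 droplet lane. Nothing in the labels ties a sample to its own animal, and p-values therefore speak only of the spread among these samples.

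Microfold cells are rare epithelial cells that lie over lymphoid follicles of the gut and carry luminal antigen to the immune cells below. The cytokine RANKL induces them through RANK and NF-kB, and the transcription factors Spi-B and Sox8 are needed for their maturation, including display of the bacterial receptor GP2. In the thymus, a subset of medullary epithelial cells takes on a microfold program as one of several mimetic programs that resemble peripheral tissues. Hnf4a and Hnf4g, the genes deleted here, encode nuclear receptors that drive genes of gut epithelium and liver.

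The authors' Microfold class held 152 cells, 76 of each genotype. Control samples 1, 2 and 3 had 18, 25 and 33 of them, and mutant samples 1, 2, 3 and 4 had 20, 22, 26 and 8. They were 2.09% to 2.73% of the cells of a control sample and 0.583% to 1.75% of the cells of a mutant sample. Mutant sample 4, with 8 cells, was left out of tests within the class and of the tests that set the class against others; its values are given beside them. The median Microfold cell held 13940 UMIs in control and 11416 in mutant samples.

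The 250 bases before the start sites of 4 members are shown because the genotype comparison turns on them: Gp2, Ccl6 and Anxa5 were lower in mutant Microfold cells, and Ccl9, the neighbour of Ccl6, was not called. The stretches are RefSeq promoter sequence of build GRCm38.p6, at chr7:119459273-119459522 for Gp2, chr11:83593088-83593337 for Ccl6, chr11:83578637-83578886 for Ccl9 and chr3:36475888-36476137 for Anxa5, all on the minus strand and written 5′ to 3′ in the direction of transcription. Capitals mark the letters CAAAG, the core of the sequence that HNF4 factors bind, on either strand, so that a match on the other strand reads CTTTG.
Gp2: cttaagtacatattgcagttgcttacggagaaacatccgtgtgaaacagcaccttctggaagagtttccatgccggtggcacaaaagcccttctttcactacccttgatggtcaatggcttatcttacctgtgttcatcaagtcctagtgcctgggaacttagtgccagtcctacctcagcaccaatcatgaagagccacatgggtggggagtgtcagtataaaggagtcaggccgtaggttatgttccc
Ccl6: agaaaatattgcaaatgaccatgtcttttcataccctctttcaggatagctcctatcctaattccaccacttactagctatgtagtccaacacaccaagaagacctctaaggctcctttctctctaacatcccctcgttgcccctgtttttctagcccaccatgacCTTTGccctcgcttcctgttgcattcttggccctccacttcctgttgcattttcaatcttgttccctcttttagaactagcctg
Ccl9: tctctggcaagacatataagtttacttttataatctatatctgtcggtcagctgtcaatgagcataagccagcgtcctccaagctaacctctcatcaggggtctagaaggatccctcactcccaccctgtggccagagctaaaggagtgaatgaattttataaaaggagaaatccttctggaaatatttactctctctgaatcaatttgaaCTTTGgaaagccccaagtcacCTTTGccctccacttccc
Anxa5: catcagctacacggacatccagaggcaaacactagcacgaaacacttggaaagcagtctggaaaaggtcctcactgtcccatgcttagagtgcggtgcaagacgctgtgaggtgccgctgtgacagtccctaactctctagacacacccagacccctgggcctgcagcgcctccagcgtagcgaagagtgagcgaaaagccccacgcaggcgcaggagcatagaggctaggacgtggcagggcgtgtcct

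RefSeq start sites were at hand for 9 of the 10 members, all but Tnfrsf11b. Over windows of 300 bases, 250 before and 50 after the start, CAAAG on either strand was present in 7 of the 9, namely Gp2, Sox8, Ccl20, Ccl9, Ccl6, Tnfaip2 and Siglecf, and in 53.9% of all 32851 promoter windows. Spib and Anxa5 held none. The Gp2 match lay after the start site, in bases that are not shown. A longer form, CAAAGTTCA, overlaps the shorter one and was present on either strand in Ccl9 alone of the 9 and in 0.390% of all windows, while CAAAGTCCA was in none of the 9 and in 0.475% of all. GGAAGT, a sequence of the kind that ETS factors such as Spi-B bind, was present on either strand in 4 members, Ccl20, Ccl9, Ccl6 and Siglecf, and in 23.8% of all windows. These matches describe the letters alone.

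Ccl9 and Ccl6 encode related CC chemokines and are neighbours on the minus strand of chromosome 11, with 9245 bases between them. Their promoter windows aligned over 74 columns, of which 59 (79.7%) were identical. The longest run of bases that any of the 3 annotated Ccl6 transcripts shared with any of the 2 of Ccl9 was 25. Genes of the annotation overlapped 4 members. E230016K23Rik, on the opposite strand to Ccl6, had 482 UMIs against 3140 of Ccl6, and Gm40578, opposite Tnfaip2, had 127 against 7640, while Mir7009 within Anxa5 and 2810468N07Rik opposite Sox8 had 0. Whether counting used strand is not given in the sources used here.

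In control cells, summed over samples, all 10 members had their highest level in the Microfold class. Since the authors' clustering could read every gene, members included, these class levels are a description and were not tested. Levels are UMIs per 1000000 UMIs of the summed cells (CPM). Gp2, the glycoprotein by which microfold cells bind bacteria, stood at 2722 CPM in Microfold and at 1988 CPM in Klk-rich cells, a ratio of 1.37. It was also at 887 CPM in the 10 Ionocyte cells, 537 CPM in Secretory and 337 CPM in Tuft cells, and fell away to 3.33 CPM in Immature cells. With each sample weighted equally Gp2 was not highest there, at 2676 ± 614 CPM in Microfold and 2956 ± 3017 CPM in Klk-rich cells (SD, n = 3 each). The Microfold and Klk-rich ranges overlapped: Klk-rich control samples, with 8, 6 and 33 cells, read 6439, 1274 and 1154 CPM, and the Microfold control samples read 2008 to 3217 CPM. Of the 1281 Gp2 UMIs of the Klk-rich control cells, 1 cell held 33.0% and 5 held 73.0%.

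The 2 transcription factors had Tuft cells second, though for Sox8 the next class, Ionocyte, was close behind at 9.54 CPM. Unthinned, a Sox8 UMI was present in 76.3% of control Microfold and 11.5% of control Tuft cells. Spib, which encodes Spi-B, was at 1095 CPM in Microfold and 343 CPM in Tuft cells. Sox8 was at 164 CPM in Microfold and 11.4 CPM in Tuft cells, 14.4 times lower. Control samples did not overlap between these classes for either gene, at 978 to 1419 CPM against 319 to 379 CPM for Spib and 154 to 177 CPM against 8.11 to 18.5 CPM for Sox8. Because Tuft cells were numerous, with 4118 of the 9185 cells, they held 67.0% of all Spib UMIs and 49.6% of all Sox8 UMIs, and also 53.7% of Gp2 UMIs.

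The 3 chemokines had Entero-hepato cells second. Ccl20, the ligand of CCR6 that draws B cells and dendritic cells to the gut follicle epithelium, was at 8020 CPM in Microfold and 1030 CPM in Entero-hepato cells. Ccl9 was at 1178 and 233 CPM, and Ccl6 at 1548 and 227 CPM. In the Entero-hepato class few cells made up these sums: 1 of the 82 control cells held 69.2% of the 260 Ccl6 UMIs, and 5 held 82.5% of the 1180 Ccl20 UMIs. Microfold cells held 76.6% of all Ccl20 UMIs, 62.4% of Ccl9 and 64.0% of Ccl6.

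Tnfaip2, an NF-kB target that helps form thin membrane bridges in microfold cells, was at 1408 CPM in Microfold and 165 CPM in Keratinocyte cells, the next class. Tnfrsf11b encodes osteoprotegerin, a soluble decoy that binds RANKL, and was at 1418 CPM in Microfold and 174 CPM in Aire-expressing cells. Siglecf, a sialic acid receptor also known from eosinophils and tuft cells, was sparse, at 28.6 CPM from 31 UMIs in Microfold and 8.82 CPM in Tuft cells, which held 72.1% of its UMIs. Anxa5, which binds phosphatidylserine in membranes, was high in every class, at 2314 CPM in Microfold, 790 CPM in Transitional and 265 CPM in Klk-rich cells, the lowest.

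**Figure D1:**
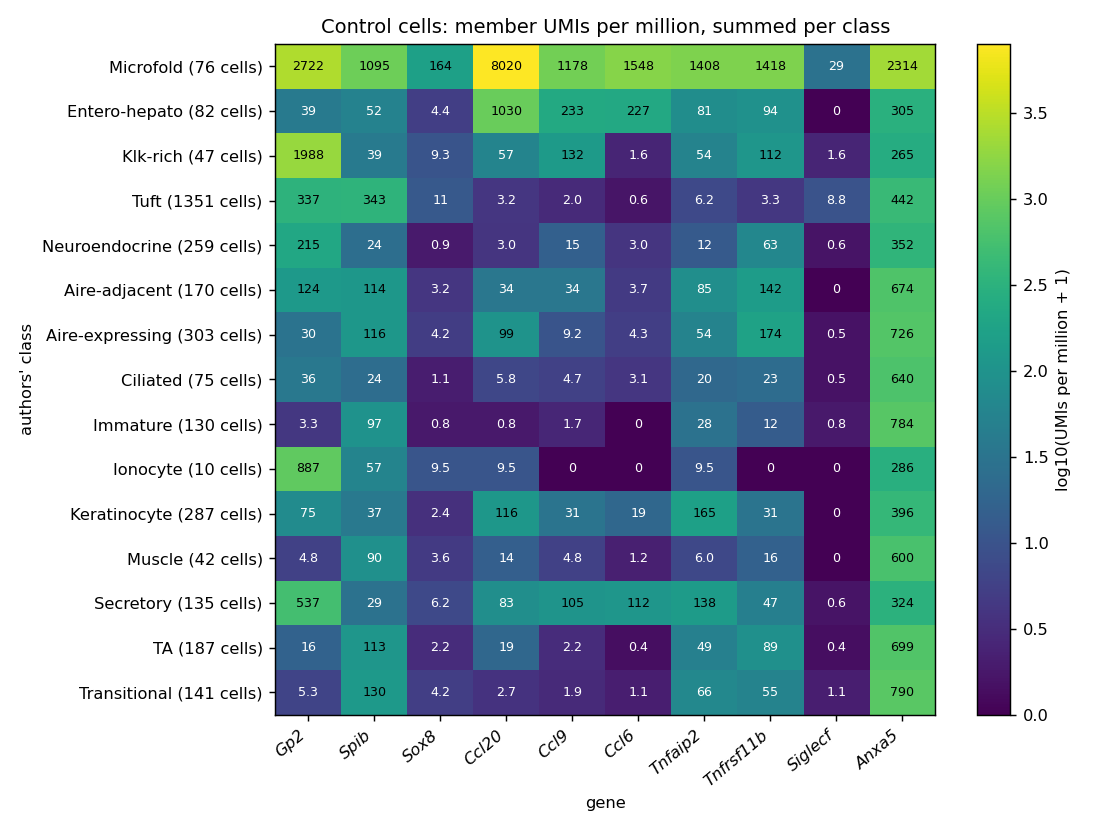
Level of each member (columns) in each of the authors' 15 classes (rows), control cells of 3 samples summed per class; colour is log10(CPM + 1) and the printed number is CPM. In these sums the Microfold row is the highest in every column, with Gp2 at 2722 in Microfold and 1988 in Klk-rich cells.

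Members were found together in single Microfold cells. Each cell was thinned to 5000 UMIs so that depth did not set the count, which left out 6 control and 9 mutant Microfold cells. At least 6 of the 10 members were then present in 64 of 70 control (91.4%) and 46 of 67 mutant Microfold cells (68.7%). In all other classes 17 of 8537 cells (0.199%) had as many. By sample the share was 100%, 85.0% and 90.9% in control samples 1, 2 and 3 and 65.0%, 57.9%, 81.0% and 71.4% in mutant samples 1, 2, 3 and 4, so the groups did not overlap. The median was 8 members per cell in each control sample and 6 or 7 in the mutant samples.

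Most members were present in most control Microfold cells. At 5000 UMIs the mean share of control cells with a UMI was 95.4% ± 1.46 (SD, n = 3) for Tnfrsf11b, 93.7% ± 3.50 for Spib, 88.7% ± 1.14 for Ccl20 and 62.4% ± 9.81 for Gp2. Siglecf was lowest at 10.6% ± 8.10. Free RNA can give a UMI to a cell that does not make the gene. Immature cells had the lowest control level of both Gp2 and Ccl20. In control Immature cells Gp2 was present in 1.83% and Ccl20 in 0 of 109 cells (exact 95% upper bound 3.33%), at the same thinned depth. Unthinned, the control share with Gp2 was 3.08% in Immature and 24.0% in Ciliated cells. With Ccl20 it was 0.769% in Immature and 17.4% in Keratinocyte cells. The part of free RNA in these shares was not tested. Of control cells with a Gp2 UMI 95.2% had Spib, and of those without 92.9% did. In mutant cells Spib was present in 95.7% of the 23 with Gp2 and in 77.3% of the 44 without. Ccl20 was present in 97.6% of control cells with Gp2 and in 75.0% of those without, and in 87.0% and 81.8% of mutant cells.

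The genes whose levels followed a member most closely across 14 classes of control cells were named by Pearson correlation of log2(CPM + 1) over 15817 genes, as a description of points that share libraries and depth. Pglyrp1, a peptidoglycan recognition protein, was the nearest to Ccl9 (r = 0.959), with Btnl4 next (0.958). Adgrg7 was nearest to Ccl20 (0.929), Naip1 to Ccl6 (0.928), Etf1 to Tnfaip2 (0.908) and Efcab8 to Tnfrsf11b (0.911). The nearest to Gp2, Spib, Sox8, Siglecf and Anxa5 were Nuak2 (0.899), Slc38a2 (0.913), Plekhs1 (0.884), Cerox1 (0.850) and Ednra (0.908). Among the members themselves, Ccl20 and Ccl6 were closest (0.889), and Gp2 followed Ccl9 (0.728) more than Spib (0.155).

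Within Microfold cells 3 of the 10 members were lower in the mutant samples, the receptor gene Gp2, the chemokine gene Ccl6 and the annexin gene Anxa5, and the other 7 did not pass the test. All 10 members passed the filter on low counts. In this class 141 of 4656 genes tested (3.03%) were called, 109 lower and 32 higher, and the median log2 change, of mutant over control, was -0.37 over the members and 0.01 over all genes tested. The question of this comparison was whether microfold cells that form without both factors have the same program. Cells that had lost more of the program could have been placed in another class, so the comparison covers only cells that the authors still assigned to it.

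Gp2 read 2008, 3217 and 2802 CPM in control samples 1, 2 and 3 and 417, 1126 and 431 CPM in mutant samples 1, 2 and 3. The groups did not overlap, and mutant sample 4, outside the fit, read 84.5 CPM from 7 UMIs. Gp2 fell by 2.06 on the log2 scale (SE 0.38, edgeR adjusted p = 0.0205). A few cells carried many of the Gp2 UMIs in both groups. In mutant sample 2, the highest mutant sample, 1 cell held 210 of 322 UMIs, and Scrublet marked that cell as a likely doublet; without it the sample read 435 CPM. With the top cell of each sample taken out, the control samples read 1005 to 2500 CPM and the mutant samples 56.6 to 435 CPM, still apart. The share of cells with a Gp2 UMI at 5000 UMIs was 62.4% ± 9.81 over the 3 control samples and 35.7% ± 4.98 over the 4 mutant samples (SD). The call was lost when control sample 2 or 3 or mutant sample 1 or 3 was left out, with edgeR adjusted p values between 0.0504 and 0.0948, and kept when control sample 1 or mutant sample 2 was.

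The transcription factors that stand above Gp2 in microfold maturation did not pass. Spib read 1419, 1011 and 978 CPM in control samples and 844, 979 and 987 CPM in mutant samples 1, 2 and 3, with overlap, and mutant sample 4 read 1135 CPM (log2 change -0.31, SE 0.19, edgeR adjusted p = 0.482). Sox8 read 169, 177 and 154 CPM against 115, 126 and 137 CPM, which do not overlap, but mutant sample 4 read 205 CPM from 17 UMIs (log2 change -0.43, SE 0.21, edgeR adjusted p = 0.342). At 5000 UMIs, cells with a Sox8 UMI made up 52.4% ± 5.58 over the 3 control samples and 45.5% ± 7.84 over the 4 mutant samples (SD).

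The chemokines divided. Ccl6 read 1164, 1279 and 1900 CPM in control samples 1, 2 and 3 and 287, 346 and 450 CPM in mutant samples 1, 2 and 3, with 121 CPM in mutant sample 4. Every mutant sample lay below every control sample. Ccl6 fell by 2.05 on the log2 scale (SE 0.27, edgeR adjusted p = 0.00506), and it was called with each of the 6 samples left out in turn (edgeR adjusted p between 0.0112 and 0.0455). The share of cells with a Ccl6 UMI was 77.0% ± 6.36 over the 3 control samples and 33.2% ± 7.37 over the 4 mutant samples (SD).

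Ccl9, by contrast, read 1340, 1014 and 1189 CPM in control samples and 1070, 941, 1367 and 1461 CPM in mutant samples 1 to 4. The ranges overlapped, with a log2 change of -0.10 (SE 0.20, edgeR adjusted p = 0.878). Ccl20 read 8787, 7928 and 7681 CPM against 7426, 7157, 9924 and 5785 CPM and also overlapped (log2 change -0.03, SE 0.19, edgeR adjusted p = 0.975). Ccl20 had 2047 to 3999 UMIs per sample in the fit, so counting error was small beside the spread between samples.

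Ccl6 and Ccl9 can be set against each other within a sample, where library size cancels. The ratio of Ccl6 to Ccl9 UMIs was 0.868, 1.26 and 1.60 in control samples 1, 2 and 3 and 0.268, 0.368, 0.329 and 0.0826 in mutant samples 1, 2, 3 and 4. The highest mutant ratio was below the lowest control ratio. Over the 6 samples of the fit the geometric means were 1.20 and 0.319, a log2 difference of -1.92 (two-sided exact permutation p = 0.1, the smallest that 3 against 3 samples allow). With all 7 samples the difference was -2.40 (exact permutation p = 0.0286, the smallest that 35 splits allow). This ratio was chosen after the values of both genes were seen.

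**Figure D2:**
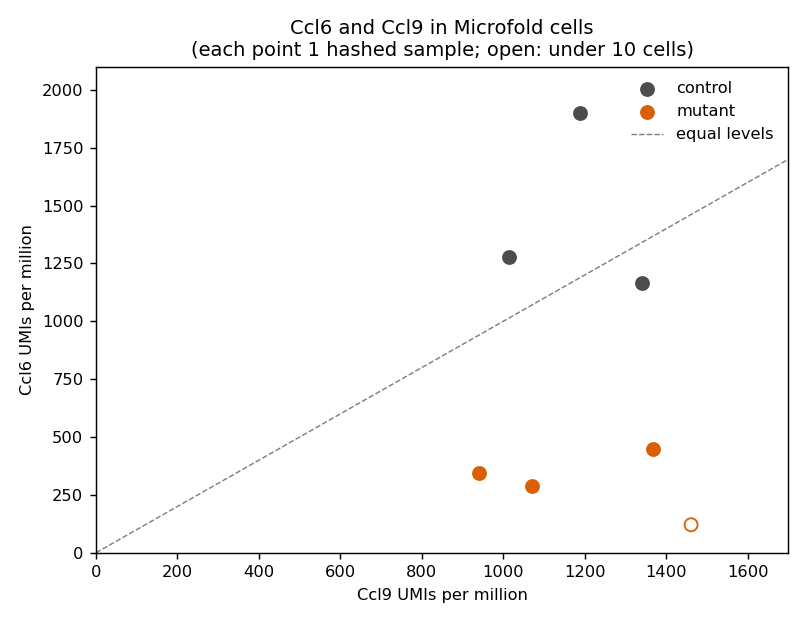
Ccl6 (vertical) against Ccl9 (horizontal) in Microfold cells, both in CPM, each point 1 hashed sample, open where the sample had under 10 Microfold cells; the dashed line marks equal levels. Ccl9 spans 941 to 1461 over all 7 samples, while Ccl6 is 1164 to 1900 in control and 121 to 450 in mutant samples.

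The NF-kB target Tnfaip2 read 1603, 1399 and 1314 CPM in control and 704, 1157, 993 and 1087 CPM in mutant samples 1 to 4. The groups did not overlap, but the gene did not pass (log2 change -0.63, SE 0.21, edgeR adjusted p = 0.146). Tnfrsf11b read 2012, 1604 and 1008 CPM against 1246, 1217, 1632 and 809 CPM, with wide overlap (log2 change -0.19, SE 0.24, edgeR adjusted p = 0.773). Its share of cells with a UMI was 95.4% ± 1.46 in control and 81.4% ± 2.99 in mutant samples at 5000 UMIs, but 84.2% ± 7.34 and 82.1% ± 7.22 at 2500 UMIs, where the groups overlapped.

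Siglecf and Anxa5 are the surface and membrane proteins of the list besides GP2. Siglecf read 33.8, 43.5 and 17.3 CPM in control and 68.2, 69.9, 44.7 and 36.2 CPM in mutant samples, from 3 to 20 UMIs per sample, and was the sole member with a positive log2 change (0.98, SE 0.39, edgeR adjusted p = 0.224). Anxa5 read 1783, 2113 and 2701 CPM in control and 941, 815, 1303 and 882 CPM in mutant samples. The groups did not overlap, and Anxa5 fell by 1.16 on the log2 scale (SE 0.25, edgeR adjusted p = 0.0337). An Anxa5 UMI was present in 92.4% ± 3.64 of control and 92.7% ± 6.09 of mutant cells at 5000 UMIs and, at 2500 UMIs, in a mean of 82.1% of control and 74.2% of mutant cells, with overlap between samples. The gene was also present in 93.6% of control Immature cells at 5000 UMIs. The Anxa5 call was lost without control sample 2 or 3 or mutant sample 1 or 2 (edgeR adjusted p between 0.0802 and 0.141).

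**Figure D3:**
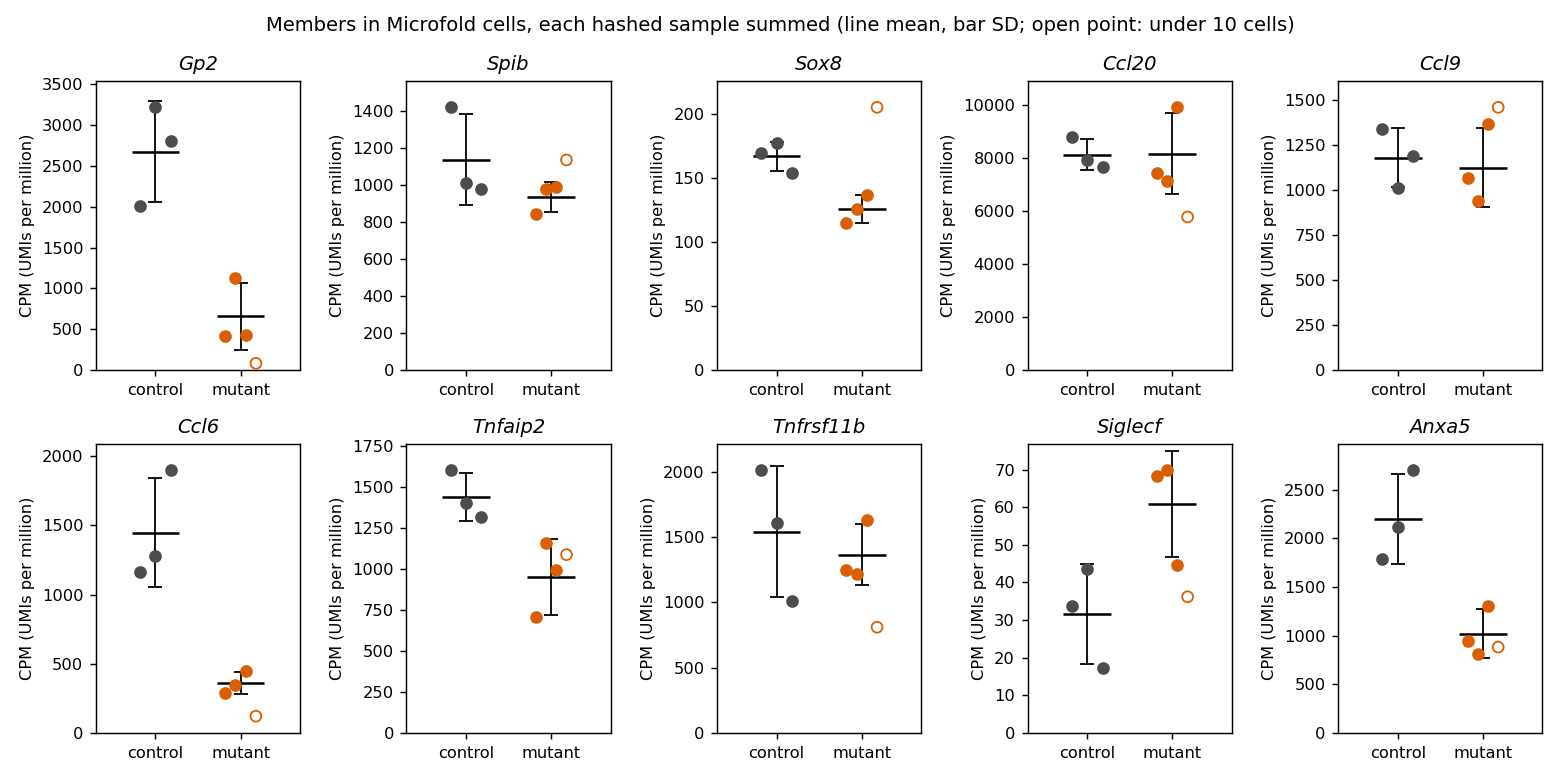
Level of each member in Microfold cells, in CPM, each point 1 hashed sample; lines and bars are the mean and SD of samples with at least 10 cells, and open points are mutant sample 4 with 8 cells. Gp2, Ccl6, Tnfaip2 and Anxa5 show mutant samples wholly below control samples, while Ccl20 and Ccl9 overlap. The share of all genes tested without such overlap is not given here, so its lack alone does not set these members apart. Tnfaip2 did not pass the test (edgeR adjusted p = 0.146). An unadjusted edgeR p under 0.05 was found for 5 of the 10 members and for 16.3% of all genes tested in this class.

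Markers of other cell types were present in the same cells, and of the sums given here the Entero-hepato sum alone did not overlap between genotypes. The summed level of 7 Entero-hepato markers was 1738 to 1886 CPM in control and 50.3 to 326 CPM in mutant samples, against 113 CPM in cells outside the class. Fabp1, the fatty acid binding protein of liver and gut, gave most of the sum in Microfold cells, with 1323 and 143 UMIs. The 4 eosinophil markers summed to 1012 to 2796 CPM and 213 to 1296 CPM, against 45.7 CPM in cells outside the class. Nearly all of it in Microfold cells came from Prg2, with 1857 and 673 UMIs. Epx had 1 and 0, while Il5ra, with 6 and 16 UMIs, and Ccr3, with 3 and 21, went the other way. The 9 myeloid markers summed to 480 to 1748 CPM and 350 to 770 CPM, against 287 CPM in cells outside the class. Most of it in Microfold cells was Lyz2, with 942 and 469 UMIs. Ptprc, which marks blood cells, had 2 and 1 UMIs and Csf1r 1 and 1. Itgam had 23 and 8, Fcer1g 14 and 8, Cd68 8 and 3, and Tyrobp 0 and 4. Adgre1 had 17 and 2 UMIs and C1qa 9 and 10, each gene in 2 Microfold cells. Of the T cell markers Cd3e was at 0, Cd3d had 2 and 1 UMIs, Cd8a 1 and 0, and Cd4 0 and 2. The 4 plasmacytoid dendritic markers summed to 323 to 947 CPM and 930 to 1184 CPM, against 971 CPM in cells outside the class. Ly6d gave most of it, with 677 and 952 UMIs, Irf8 had 33 and 36, Klk1 13 and 6, and Siglech was at 0. Tuft markers summed to 117 to 661 CPM and 96.6 to 623 CPM, against 3025 CPM in cells outside the class. The part of these markers in the members' levels was not tested.

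Genes known from microfold cells besides the members fell in part. Of 22 such genes 18 were tested and 4 were lower, with none higher, against 3.03% of all genes tested in the class called in either direction. An unadjusted edgeR p under 0.05 was found for 6 of the 18 and for 16.3% of all genes tested. The median log2 change of the 18 was -0.23. This list was chosen with earlier results of these data known. Pglyrp1 was at 6008 ± 914 in control and 2471 ± 557 CPM in mutant samples (SD, n = 3 each), a log2 change of -1.32 (SE 0.23, edgeR adjusted p = 0.0180). Serpinb1a, which encodes a serpin that blocks proteases of neutrophils, went from 7244 ± 694 to 3390 ± 1263 CPM (log2 change -1.13, edgeR adjusted p = 0.0440). Nostrin, which encodes a trafficking adaptor of endothelial nitric oxide synthase, fell by 1.79 on the log2 scale (edgeR adjusted p = 0.00697) and Scg5, a chaperone of secretory granules, fell by 2.33 (edgeR adjusted p = 0.0337). Without mutant sample 1 none of the 4 was called (edgeR adjusted p between 0.0614 and 0.128). Nostrin and Pglyrp1 were called without any other 1 sample, Scg5 without control sample 1 or mutant sample 3 alone, and Serpinb1a without mutant sample 3 alone.

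The RANK and NF-kB pathway upstream of the program did not pass. Of its 19 genes 16 were tested and 0 were called by edgeR or DESeq2, with a median log2 change of 0.07. An unadjusted edgeR p under 0.05 was found for 2 of the 16 and for 16.3% of all genes tested in the class. These 2 were Nfkb2, which encodes the p100 subunit of NF-kB, at 90.6 ± 7.14 and 147 ± 0.199 CPM (SD, n = 3 each; log2 change 0.64, edgeR adjusted p = 0.153), and Traf2, which encodes a signalling adaptor of TNF receptors, at 27.9 ± 2.44 and 50.4 ± 7.79 CPM (SD, n = 3 each; log2 change 0.77, edgeR adjusted p = 0.263). Tnfrsf11a, which encodes RANK, was at 769 ± 107 CPM (SD, n = 3) in control and 606 ± 141 CPM (SD, n = 3) in mutant Microfold cells, and the NF-kB subunit gene Relb at 221 ± 28.2 and 266 ± 45.2 CPM. Tnfsf11, which encodes RANKL, had 0 and 1 UMIs. Of 13 partners and relatives of the members 5 were tested and 1 was called, against 3.03% of all genes tested in the class. An unadjusted edgeR p under 0.05 was found for 4 of the 5. The 1 called was Anxa1, another annexin gene, which rose from 74.4 ± 37.0 to 241 ± 59.8 CPM (log2 change 1.57, SE 0.35, edgeR adjusted p = 0.0415). The Anxa1 call held without control sample 3 (edgeR adjusted p = 0.0137) and was lost without any other 1 sample (0.0641 to 0.147), and it was lost at 0.102 without likely doublets and mismatched tags. Ccr6, the receptor of CCL20, had 3 and 1 UMIs. Of the targeted genes, Hnf4g was at 743 ± 248 CPM in control and 439 ± 99.8 CPM in mutant Microfold cells and did not pass (log2 change -0.82, SE 0.28, edgeR adjusted p = 0.160), and Hnf4a had 5 and 0 UMIs. Over all cells Hnf4g was lower in mutant samples (log2 change -0.50, SE 0.06, edgeR adjusted p = 0.0384), a call lost with any 1 of the 7 samples left out (edgeR adjusted p between 0.0720 and 0.184). Reads come from transcript 3′ ends, which can lie outside a deleted part, so these levels do not check the deletion.

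Over all cells together, 1 of the 10 members passed, against 39 of 21187 genes (0.184%). Ccl6 read 35.3, 41.9 and 53.6 CPM in control samples and 9.57, 11.1, 15.0 and 6.15 CPM in mutant samples, and fell by 2.06 on the log2 scale (SE 0.28, edgeR adjusted p = 0.0470). In such sums fewer cells of a type and less RNA per cell cannot be told apart. The Ccl6 call was lost with any 1 of the 7 samples left out (edgeR adjusted p between 0.0672 and 0.211). With Microfold cells removed, Ccl6 was at 10.5 ± 5.41 and 6.58 ± 1.18 CPM (log2 change -0.69, edgeR adjusted p = 0.929). Without Entero-hepato cells Ccl6 was at -1.97 (edgeR adjusted p = 0.0737).

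Ccl9 and Ccl20 showed lower sums over all cells although their level per Microfold cell did not pass. Ccl9 was at 35.4 to 52.2 CPM in control and 13.8 to 27.3 CPM in mutant samples (log2 change -1.16, SE 0.23, edgeR adjusted p = 0.176). Ccl20 was at 222 to 274 and 46.5 to 173 CPM (log2 change -0.99, SE 0.38, edgeR adjusted p = 0.669). The groups did not overlap for either gene, and neither passed. DESeq2 called Ccl9 (adjusted p = 4.62e-04) and Tnfaip2 (adjusted p = 0.00268) besides Ccl6 over all cells. Without Microfold and Entero-hepato cells Ccl20 was at 27.8 ± 14.3 CPM (SD, n = 3) and 28.9 ± 8.99 CPM (SD, n = 4). The median log2 change of the 10 members over all cells was -0.47, and 0.00 over all genes tested; without Microfold cells the members' median was -0.15. Gp2, held mostly by Tuft cells, was at 198 to 369 CPM and 179 to 298 CPM over all cells (log2 change -0.22, SE 0.24, edgeR adjusted p = 0.981).

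**Figure D4:**
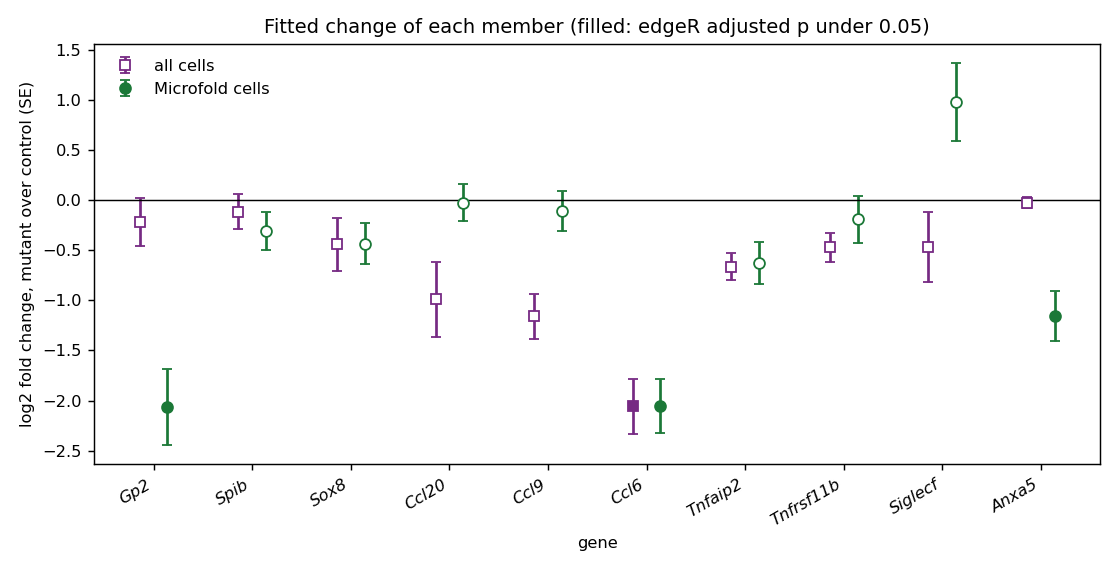
Fitted log2 change, mutant over control, of each member over all cells (squares) and within Microfold cells (circles), with the standard error; filled symbols have an edgeR adjusted p under 0.05. Gp2 and Anxa5 are lower in Microfold cells alone (-2.06 and -1.16), Ccl6 is lower in both sums, and Ccl9 is at -0.10 in Microfold cells.

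The tests within 10 further classes gave 1 member call, Gp2 in Neuroendocrine cells. Samples needed at least 10 cells of a class, which Klk-rich, Muscle, Ionocyte and Entero-hepato cells did not reach in 3 samples of each genotype. In Neuroendocrine cells 44 of 11297 genes (0.389%) were called, and 6 members were tested. Gp2 read 384, 307 and 101 CPM in control samples 1, 2 and 3 and 65.9, 47.9, 30.6 and 33.7 CPM in mutant samples 1 to 4. The groups did not overlap, and Gp2 fell by 2.49 on the log2 scale (SE 0.40, edgeR adjusted p = 0.0232). The call was kept without control sample 3 and lost without any other 1 of the 7 samples (edgeR adjusted p between 0.0549 and 0.119). In the control cells 5 of 259 held 69.7% of the Gp2 UMIs of the class, and at 5000 UMIs 11.6% of control and 8.88% of mutant cells had one.

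Gp2 did not go down in every class. In Tuft cells it read 362, 348 and 309 CPM in control and 337, 329, 399 and 292 CPM in mutant samples, with a log2 change of -0.01 (SE 0.09, edgeR adjusted p = 0.994), where 0.0881% of genes were called. Klk-rich mutant samples read 1909 to 2838 CPM and control samples 1154 to 6439 CPM, with no test at 10 cells per sample. In Aire-adjacent cells the values were 308, 255 and 17.7 CPM against 5.20 to 29.6 CPM (log2 change -3.24, edgeR adjusted p = 0.304). Of the control Gp2 UMIs of that class 1 cell held 44.8% and 5 of 170 held 88.9%. With each sample left out in turn the Aire-adjacent adjusted p ran from 0.00358, without control sample 3, to 0.885, and that 1 of the 7 fits made the call. In Secretory cells, with 867 control and 4035 mutant UMIs, Gp2 was at 585 ± 229 (SD, n = 3) and 906 ± 263 CPM (SD, n = 4). The samples overlapped and it did not pass (log2 change 0.64, SE 0.29, edgeR adjusted p = 0.748). Without the low-count filter it was called higher there (0.69, edgeR adjusted p = 0.0117), where 112 genes were called lower and 157 higher of 23202. In Immature and Transitional cells the log2 change was 2.65 and 1.91 with few UMIs (edgeR adjusted p = 0.999 and 0.964).

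**Figure D5:**
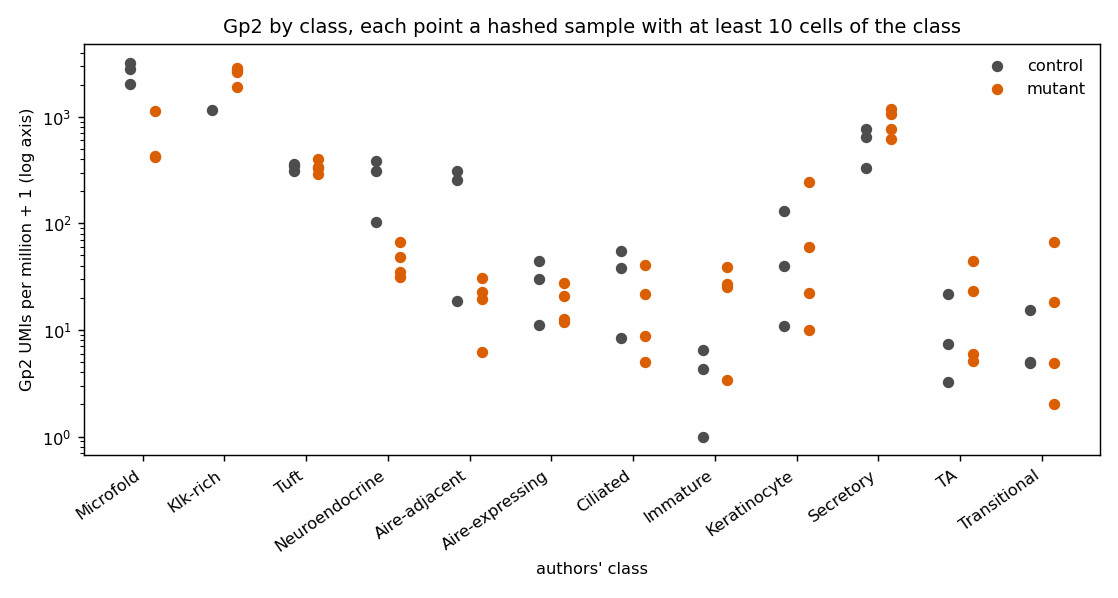
Gp2 in CPM + 1, on a log axis, by class; each point is 1 hashed sample with at least 10 cells of the class, grey for control and orange for mutant. Mutant points lie below control points in Microfold and Neuroendocrine cells and among them in Tuft cells.

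No other member passed in the 10 further classes tested. Ccl20 in Aire-expressing cells read 168, 23.7 and 113 CPM in control and 32.2, 10.3, 56.3 and 14.1 CPM in mutant samples, with overlap (log2 change -1.75, SE 0.70, edgeR adjusted p = 0.953). In Keratinocyte cells Ccl20 was at 40.6 to 179 and 133 to 477 CPM (log2 change 1.08, edgeR adjusted p = 0.685) and Ccl6 at 7.62 to 60.2 and 2.80 to 13.4 CPM (log2 change -1.54, edgeR adjusted p = 0.685). Ccl9 in Aire-adjacent cells had a log2 change of -1.61 (edgeR adjusted p = 0.752). Siglecf in Tuft cells read 9.81, 9.54 and 7.53 CPM in control and 4.30, 5.08, 6.63 and 5.67 CPM in mutant samples, without overlap (log2 change -0.73, SE 0.19, edgeR adjusted p = 0.266). That is the opposite sign to Siglecf in Microfold cells, and neither passed. Ccl9 in Secretory cells was at 54.5 to 143 and 40.2 to 58.3 CPM (log2 change -0.99, edgeR adjusted p = 0.456), where 0.0314% of genes were called. In Keratinocyte cells, with 0.0799% of genes called, Ccl9 was at 2.46 to 45.4 and 0.699 to 13.5 CPM (log2 change -2.06, edgeR adjusted p = 0.549). The Aire-adjacent, Aire-expressing, Ciliated, Immature, TA and Transitional classes had 0% of genes called by edgeR, with 255 to 666 genes at an unadjusted p under 0.05 and 0 to 40 called by DESeq2. Ccl20 in Neuroendocrine cells was mostly 2 cells of mutant sample 1 with 96 and 42 UMIs; they also had 8 and 6 of the 10 members, Scrublet marked 1, and the other carried a second strong hash tag.

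The differences between the Microfold class and all other cells were tested directly, with 1 sum for each per sample and the sample as a block. Of 16812 genes 227 (1.35%) differed in their response to genotype, 4 of them members. The log2 change in Microfold cells minus that in other cells was -2.49 for Gp2 (SE 0.30, edgeR adjusted p = 8.11e-08), -1.56 for Ccl6 (SE 0.27, edgeR adjusted p = 1.56e-04) and -1.24 for Anxa5 (SE 0.24, edgeR adjusted p = 8.25e-04). For Ccl9 it was 1.30 (SE 0.26, edgeR adjusted p = 0.00119); outside the class Ccl9 stood at 17.0 ± 5.83 CPM (SD, n = 3) in control and 6.63 ± 1.58 CPM (SD, n = 4) in mutant samples. Entero-hepato cells, 82 in control and 3 in mutant samples, held 267 of the control Ccl9 UMIs outside the class. With them left out of the other cells, an alternative added after the data were seen, Ccl9 outside the class was at 12.1 ± 4.87 (n = 3) and 6.64 ± 1.58 CPM (n = 4) and its difference did not pass (0.79, SE 0.26, edgeR adjusted p = 0.153), while Gp2, Ccl6 and Anxa5 did. In that fit 1.37% of genes were called. Anxa5 outside the class was at 526 ± 18.2 and 546 ± 12.7 CPM. The other 6 members did not pass.

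Against Neuroendocrine cells alone, 0 of 10 members differed by edgeR, where 0.0752% of genes did; 2 members and 9.20% of genes had an unadjusted p under 0.05. The Gp2 difference there was 0.10 (SE 0.55, edgeR adjusted p = 0.995), so its fall in the 2 classes could not be told apart in size within that error. Against Tuft cells alone, an alternative added after the data were seen, Gp2 (-2.28, SE 0.34, edgeR adjusted p = 7.52e-04) and Anxa5 (-1.34, edgeR adjusted p = 0.0103) differed. Ccl6 did not pass (-1.95, edgeR adjusted p = 0.0751), and Ccl9 took the other sign and did not pass (-0.37, SE 0.32, edgeR adjusted p = 0.827). There 0.736% of genes differed. In the same way, and also added after the data were seen, Neuroendocrine cells were set against all classes but Microfold. There 6 of 17727 genes (0.0338%) differed, and 1 was a member, Gp2, with a difference of -2.55 (SE 0.29, edgeR adjusted p = 0.0111).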

How the data were processed

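RNA of 9185 annotated cells was read with 10x 3' v3.1 chemistry in 1 run, and hash tags split the cells into 3 control and 4 mutant samples. The deposited matrix holds whole-number UMI counts made by the authors, per the file headers, and the deposited cell table, also the authors', gives each cell's sample and class. Per the submitters' processing notes the tools were Cell Ranger 6.1.0 and Seurat 4.0.2 on build mm10, but the header of the matrix gives Cell Ranger 7.0.0. Samples held 10127838 to 25821970 UMIs over 801 to 1652 cells. No cell barcode was shared between samples. Chi-square per degree of freedom between samples of a group was at least 5.23, and none was counted as a repeat.

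Counts were summed per sample and cell set and tested with edgeR 4.0.16 (limma 3.58.1, R 4.3.3): filterByExpr, TMM, quasi-likelihood F test, two-sided, with Benjamini-Hochberg adjustment over all genes tested and a threshold of 0.05. A class needed 3 samples of each genotype with at least 10 cells. CPM are UMIs per 1000000 UMIs of the summed cells. Shares of cells with a UMI used cells thinned to 5000 UMIs by random draws without replacement in numpy 2.4.6. Scrublet was run through scanpy 1.11.5. Scrublet marked 168 annotated cells (1.83%) as doublets, 6 of them Microfold; 45 cells had a top hash tag of another sample, and both kinds were taken out in an alternative only. The fits were tested on simulated data. Alternatives were DESeq2 1.42.0, no TMM, no low-count filter, each sample left out, a replicate block, other cell minimums and cell sets left out. Named genes are the 10 members, list genes past the threshold and the 3 genes nearest each member, of which the nearest is given (2 for Ccl9), and some genes are not reported here; Tnfrsf11a, Relb, Nfkb2, Traf2, Tnfsf11, Ccr6 and the other-cell markers named were picked after their values were seen. Positions and transcripts came from GENCODE mouse release 21 and promoters from RefSeq. Members and lists were chosen with earlier results of these data known. Exact permutation tests are two-sided on the absolute difference, and intervals cover counting error only.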

Additional observations from a re-analysis of the deposited data

Results flagged for a closer look

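In 5 cases the response of a member to genotype differed between cell sets by a test of the difference itself, as edgeR called in fits with the sample as a block. Set against all other cells, the log2 fold change in Microfold cells differed by -2.49 for Gp2, -1.56 for Ccl6, -1.24 for Anxa5 and 1.30 for Ccl9. These 4 calls were kept with each of the 6 samples left out in turn; the highest edgeR adjusted p was 1.41e-05 for Gp2, 0.00125 for Ccl6, 0.0161 for Anxa5 and 0.00789 for Ccl9. They depended on the cells compared with: none was called against Neuroendocrine cells alone, where Gp2 was at 0.10, and against Tuft cells alone Gp2 and Anxa5 were called, Ccl6 was not (edgeR adjusted p = 0.0751) and Ccl9 was at -0.37. Without Entero-hepato cells among the other cells, Ccl9 was not called (0.79, edgeR adjusted p = 0.153). Set against all classes but Microfold, Neuroendocrine cells differed by -2.55 for Gp2. In a check for a single far sample among the 4 mutant samples, 0 of 20 sets of values (10 members, in Microfold cells and over all cells) passed Dixon's limit.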

How the results depend on the processing

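Over all cells, where 1 member and 39 genes were called, DESeq2 called 3 and 233, and leaving each sample out in turn gave 0 members and 2 to 31 genes. Without Microfold cells the counts were 0 and 9, without Entero-hepato cells 0 and 9, and without both 0 and 2 (2, 4 and 1 members at an unadjusted edgeR p under 0.05). Within Microfold cells the 3 members were called under every setting except some of those that leave out a sample, which gave 1 to 3 members and 28 to 95 genes. The 141 genes called there became 602 without the low-count filter and 217 without doublets and mismatched tags. In the other classes the 1 member call became 12 without the filter and 0 to 2 with samples left out. Calls over all genes also rose without the filter. In Keratinocyte cells they went from 7 lower and 2 higher of 11267 to 203 and 123 of 26156. In Tuft cells they went from 10 and 3 of 14760 to 227 and 243 of 30812, while Aire-expressing cells stayed at 0. Against other cells, 4 members and 227 genes differed, 4 to 5 and 223 to 285 with samples left out, 0 and 7 against Neuroendocrine cells alone, and 2 and 100 against Tuft cells alone. In Neuroendocrine cells 44 genes became 82 with DESeq2, 419 without the filter and 10 to 42 with samples left out. The cause of these shifts was not tested.

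With the replicate number as a block, 7 genes were called over all cells and 73 within Microfold cells, with 1 and 3 members, and 2 members in other classes, where Ccl9 in Keratinocyte cells joined (log2 fold change -2.47). The calls of Anxa1 and Serpinb1a were lost (edgeR adjusted p = 0.0871 and 0.0562). Same-numbered samples correlated at 0.227, 0.084 and 0.05, and samples of unlike number at -0.349 to 0.41. Control samples 1 and 2 correlated best with their own number, and control sample 3 with mutant sample 4. These few values cannot tell whether the numbers pair the samples.

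Signs turned for values near 0 that had not passed and, with the other cells narrowed to 1 class, for the called values of Gp2 and Ccl9. Over all cells Gp2 was at 0.07 and Anxa5 at 0.06 without Microfold cells, Gp2, Ccl20 and Anxa5 at 0.05 without Entero-hepato cells too, Siglecf at 0.17 without Tuft cells, and Spib at 0.00 with the block. In Microfold cells Ccl20 was at 0.01 without TMM and 0.06 without doublets. With samples left out, Spib over all cells ran from -0.28 to 0.10 and Anxa5 from -0.05 to 0.00; in Microfold cells Ccl20 ran from -0.19 to 0.06, Ccl9 from -0.27 to 0.02 and Tnfrsf11b from -0.42 to 0.00, and against other cells Tnfrsf11b ran from -0.50 to 0.30. Clu in Microfold cells ran from -0.32 to 0.04, and Gp2 in Tuft cells ran from -0.09 to 0.06, with 0.02 without the filter and 0.06 with the block. Against Neuroendocrine cells Gp2, called at -2.49 against all other cells, was at 0.10 and Ccl20 at -2.61; against Tuft cells Ccl20 was at -0.56 and Ccl9, called at 1.30 against all other cells, at -0.37. Against other cells without Entero-hepato cells 3 members were called, Ccl20 was at -0.31 and Ccl9 at 0.79 was not called. The share of cells with Anxa5, mutant minus control, was -7.90 percentage points at 2500 UMIs and -2.60 unthinned. Sets without Tuft cells, against other cells without Entero-hepato cells, against Tuft cells, of Neuroendocrine cells against other classes and of all 7 samples for the Ccl6 to Ccl9 ratio were added after the data were seen. With 76 Microfold cells of each genotype, depth limits Siglecf most.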

Other observations

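Some partner genes of the members and further microfold genes were also read in Microfold cells. The CCR1 gene Ccr1, whose protein binds several CC chemokines, had 141 UMIs in control and 35 in mutant Microfold cells, at 142 ± 60.8 and 38.5 ± 36.9 CPM (SD, n = 3 each), and 0.318 CPM in control cells outside the class. Ccr3, an eotaxin receptor gene, had 3 and 21 UMIs. Aif1, a calcium-binding protein known from macrophages and microfold cells, was at 137 ± 15.5 and 93.9 ± 46.6 CPM, and Clu, a chaperone gene of antigen-sampling epithelium, at 3386 ± 957 and 3162 ± 228 CPM. Sox9, a relative of Sox8, was at 72.2 ± 33.2 and 158 ± 51.3 CPM in Microfold and at 347 CPM in other control cells. Ccr3 did not pass the filter on low counts within Microfold cells, and edgeR called 0 of the other 4, though Ccr1 (log2 fold change -1.83, edgeR adjusted p = 0.170) and Sox9 (1.15, edgeR adjusted p = 0.113) had an unadjusted p under 0.05. All 5 were picked after their values were seen.

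Outside the Microfold class, cells with 6 or more members were scattered: Klk-rich had 4 of the 17, Aire-expressing 4 and the rest lay in 7 further classes. By share this was 4.35% of control and 2.63% of mutant Klk-rich cells at 5000 UMIs.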
